A study of Paeonia lactiflora with 9 samples.

Results

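Seeds of the herbaceous peony 'Hangshao' (Paeonia lactiflora) at 60 days after flowering (DAF) were compared with seeds at 30 DAF, the middle and the early stage of seed development, to find out which unigenes differed between them. Of the 6 libraries of these stages, a unigene had to reach 0.5 FPKM in 3 or more to be taken, which gave 43903 of the 125685 unigenes in the deposited table, or 34.9%. A unigene is a transcript assembled from the reads without a genome, and FPKM is its number of sequenced fragments divided by its length and by the depth of the library. The 9 libraries of the series were made from seeds at 30, 60 and 90 DAF with 3 replicates per stage, and the 30 and 60 DAF libraries were used here. All seeds were of 1 cultivar and strain, by the study's methods of a single plant, grown in a garden with no treatment named, and the labels give no difference between the stages other than age. The p-values thus measure the spread between these libraries, which need not cover the spread between plants. In bulk seeds, fewer cells of a type and less RNA per cell cannot be told apart.

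Oil seeds make fatty acids in plastids. Acetyl-CoA carboxylase gives malonyl-CoA, MCAT moves the malonyl group to the acyl carrier protein, and the KAS, KAR, HAD and EAR enzymes lengthen the chain until a desaturase (SAD) or a thioesterase (FATA, FATB) takes the product. Outside the plastid the chains are desaturated further by FAD2 and FAD3, elongated by the KCS, KCR, HCD and ECR enzymes, and joined to glycerol by acyltransferases to triacylglycerol (TAG), which is stored in oil bodies coated with oleosin (OLE) and caleosin (CLO).

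The biotin carboxyl carrier protein (BCCP) is the subunit of plastid acetyl-CoA carboxylase that carries biotin on a lysine. Most listed unigenes annotated as BCCP fell from 30 to 60 DAF on deposited FPKM, among them some without the lysine match described next. All reading frames of 16 supplementary BCCP sequences, on both strands, were searched for alanine or valine, methionine, lysine, then leucine or methionine. Of these, 11 held such a match, all in clusters CL6718 and CL750. The 5 of clusters CL14917 and CL4684 did not, and the sequence of Unigene23603_All, the BCCP unigene of highest FPKM, was not searched. The stretches of 75 bases around that lysine codon, which is in capitals, are shown for clusters CL6718 and CL750 to tell these carrier unigenes apart. They shared 62 of 75 bases, and each was found unchanged in 5 unigenes.
CL6718.Contig4_All: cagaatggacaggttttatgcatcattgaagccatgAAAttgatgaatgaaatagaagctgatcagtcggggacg
CL750.Contig1_All: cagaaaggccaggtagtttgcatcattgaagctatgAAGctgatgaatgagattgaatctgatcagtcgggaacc

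Among the 16 unigenes for which the study designed qRT-PCR primers, those of biotin carboxylase (BC), KCR, FAD3 and OLE are described in detail below. Their forward and reverse primers are given as the study designed them, in lower case and without a marked part. Whether a pair matches only a single contig of its cluster was not tested.
BC CL6932.Contig4_All forward: gctgtagtagagatgaaggaa
BC CL6932.Contig4_All reverse: tgcggtgttgtatgtgtaa
KCR CL15103.Contig1_All forward: tgaagtggatgagaagttgt
KCR CL15103.Contig1_All reverse: ggtcggaaggaataataatgg
FAD3 CL2686.Contig5_All forward: ctcttccctcaaatccca
FAD3 CL2686.Contig5_All reverse: ggtcttgattgatgctcc
OLE CL8973.Contig3_All forward: ttgaccactgggtttcttgcttcc
OLE CL8973.Contig3_All reverse: caaactgctccgccttgtcctt

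The libraries differed in how their FPKM were spread over unigenes. The 10 most abundant unigenes held 9.52% to 12.1% of all FPKM at 30 DAF and 14.6% to 19.6% at 60 DAF, and 44966 to 53916 unigenes reached 0.5 FPKM at 30 DAF against 39621 to 41852 at 60 DAF. Depth relative to replicate 1 at 30 DAF was estimated from the most frequent ratio of low FPKM values, on a log2 grid of 0.05. It was 0.933 to 1 at 30 DAF and 1 to 1.07 at 60 DAF, while the clean reads listed by the study were nearly equal between these libraries. Median-of-ratios scaling, which sets the typical unigene equal between libraries, is given beside the deposited FPKM. Its factors were 1.09 to 1.35 at 30 DAF and 0.839 to 0.931 at 60 DAF. On log2(FPKM + 0.5), Pearson's r across unigenes, which are not independent replicates, ranged from 0.937 to 0.947 for pairs of 30 DAF libraries, from 0.924 to 0.936 for pairs of 60 DAF libraries, and from 0.843 to 0.870 for mixed pairs. Oil-body coat proteins were found in every library, with 758 to 8724 FPKM summed over the oleosin unigenes and 399 to 766 over the caleosin unigenes.

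On deposited FPKM most unigenes that passed the test were lower at 60 DAF, and after scaling the lower ones were only slightly more than the higher ones. The test was limma on log2(FPKM + 0.5), and a unigene was called differentially expressed (DEG) when its change reached 1 in either direction and its Benjamini-Hochberg adjusted p over all 43903 unigenes was at most 0.05. On deposited FPKM there were 5470 DEGs (12.5%), of which 1166 were higher (2.66%) and 4304 lower (9.8%) at 60 DAF. With median-of-ratios scaling there were 3916 DEGs (8.92%), 1881 of them higher (4.28%) and 2035 lower (4.64%). Without replicate 3 of 30 DAF the scaled values gave 2518 DEGs, 1188 higher and 1330 lower. The share of DEGs that were higher was thus 21.3% on deposited FPKM and 48.0% after scaling. The median change of all tested unigenes was -0.35 on deposited FPKM and -0.01 after scaling, and 25.0% and 49.0% of unigenes had a positive change. The stages did not overlap in 17777 unigenes on deposited FPKM (40.5%), which included 5467 of the 5470 DEGs.

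**Figure D1:**
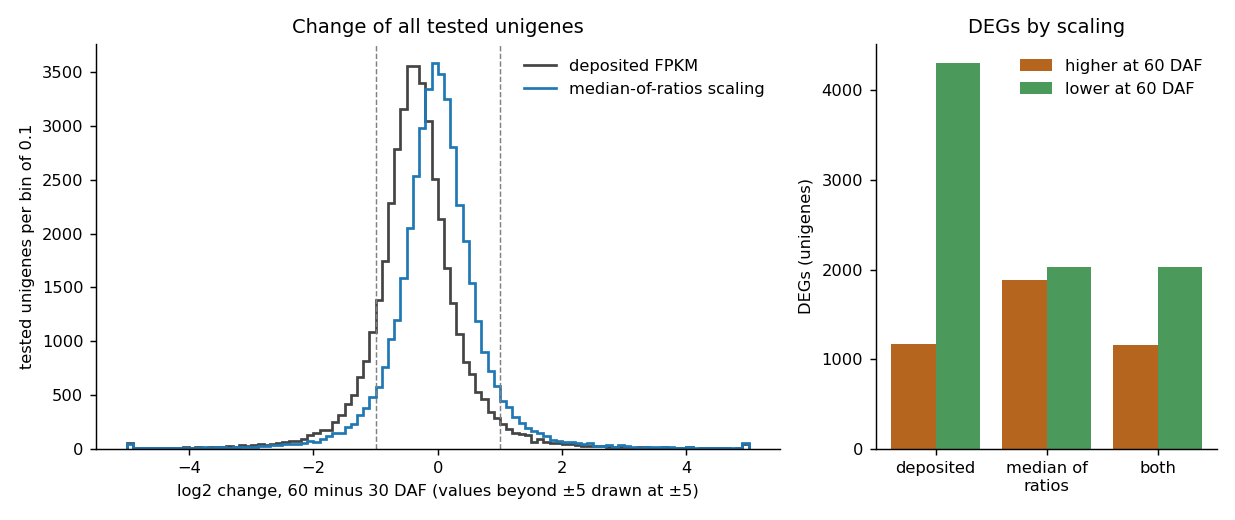
Left, number of tested unigenes by log2 change from 30 to 60 DAF in bins of 0.1, on deposited FPKM (grey) and with median-of-ratios scaling (blue); dashed lines mark a change of 1 in either direction. Right, DEGs higher and lower at 60 DAF; the 4304 lower DEGs on deposited FPKM are 2035 after scaling, and the 1166 higher DEGs are 1881.

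The call was the same under both scalings for 1162 unigenes that rose (2.65%) and 2035 that fell (4.64%). A further 2269 unigenes were lower on deposited FPKM alone, 719 were higher after scaling alone, 4 were higher on deposited FPKM alone, and no unigene was called in opposite directions. Below, a unigene is said to rise or fall where it was a DEG on deposited FPKM, and it is stated where the call was lost after scaling. The shared DEGs were more frequent among abundant unigenes. Where the higher of the stage means was under 2 FPKM, 3.79% of 19276 unigenes were called under both scalings, and where it was at least 100 FPKM, 26.2% of 1060. In that abundant class 139 rose and 139 fell, while from 10 to 100 FPKM 345 rose and 593 fell. Unigenes that rose under both scalings held 4.71% to 5.37% of all FPKM at 30 DAF and 19.2% to 28.0% at 60 DAF, and those that fell held 11.4% to 13.7% and 2.03% to 2.54%.

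The study's list of fatty acid and oil unigenes held 123 entries, of which 112 were tested. On deposited FPKM 7 rose and 38 fell, after scaling 11 and 23, and under both scalings 7 and 23. The share called on deposited FPKM was 40.2%, against 12.5% of all tested unigenes. Their median change was -0.71 on deposited FPKM and -0.31 after scaling, against -0.35 and -0.01 over all tested unigenes. The study chose this list on these libraries, so its count is not independent evidence of its direction.

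Fatty acid synthesis held most of the falls. Of 39 listed unigenes 35 were tested, and 2 rose and 25 fell on deposited FPKM, 2 and 17 after scaling, with a median change of -1.61 and -1.18. The share called on deposited FPKM was 77.1%, against 12.5% of all. Each enzyme of the pathway other than FATB held at least 1 unigene that fell on deposited FPKM. Acetyl-CoA carboxylase makes the malonyl-CoA from which all further carbons come. Its biotin carboxylase unigene of highest FPKM, CL6932.Contig4_All, had 30.9, 39.4 and 43.8 FPKM at 30 DAF and 8.04, 7.0 and 9.55 at 60 DAF. All 60 DAF libraries lay below all 30 DAF libraries. It fell by 2.14 ± 0.19 (SE) on the log2 scale with limma (Benjamini-Hochberg adjusted p = 0.000475), and by 1.70 after scaling (adjusted p = 0.00159). The BC unigenes CL6932.Contig2_All and CL6932.Contig3_All fell by 2.06 and 2.15, while CL6932.Contig1_All of the same cluster and CL8437.Contig2_All of another, at under 7 FPKM, had changes of -0.26 and -0.29 and were not DEGs. Summed over the 5 BC unigenes, FPKM was 85.8 ± 7.89 at 30 DAF and 22.2 ± 1.84 at 60 DAF (SD, n = 3 libraries), 0.259 times as much on deposited FPKM and 0.355 times after scaling.

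Of the unigenes annotated as BCCP, the biotin carrier, 5 of 6 tested fell, and 3 of them after scaling. Those 3 were CL750.Contig2_All, which held the lysine match searched for above, and CL14917.Contig1_All and CL14917.Contig2_All, which did not. CL14917.Contig2_All had 36.7, 45.9 and 37.3 FPKM at 30 DAF and 8.76, 7.61 and 9.14 at 60 DAF, without overlap, and its change was -2.16 on deposited FPKM and -1.72 after scaling. Unigene23603_All, the BCCP unigene of highest FPKM, was at 49.5 ± 3.08 and 19.9 ± 0.416 (SD, n = 3 libraries). Its libraries did not overlap either, and its change of -1.29 passed on deposited FPKM but at -0.85 did not reach the limit of 1 after scaling. Of the unigenes with a printed stretch, CL750.Contig1_All had 4.03, 0.96 and 6.06 FPKM at 30 DAF and 0.45, 0.82 and 0.19 at 60 DAF, and its change of -1.88 did not pass (limma, adjusted p = 0.0519). CL6718.Contig4_All reached at most 0.53 FPKM and was not tested. The carboxyltransferase subunit alpha-CT, which passes the carboxyl group to acetyl-CoA, fell in all 3 unigenes, with 65.3 ± 5.48 and 21.0 ± 1.13 FPKM in the most abundant, CL5887.Contig1_All. That one fell under both scalings, by 1.61 and 1.17. The other alpha-CT unigenes, with means of 2.02 and 2.70 FPKM at 30 DAF, lost their call after scaling.

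MCAT supplies the malonyl group on the carrier protein, and its only unigene, Unigene20202_All, had 21.6, 20.6 and 19.0 FPKM at 30 DAF and 8.13, 4.15 and 7.75 at 60 DAF. Its stages did not overlap. The fall of 1.60 ± 0.25 (SE) with limma (adjusted p = 0.00575) was 1.16 after scaling (adjusted p = 0.0236). KASIII starts the chain, and KASII lengthens it to 18 carbons at the end. KASIII Unigene37345_All fell from 45.8 ± 4.31 to 17.3 ± 0.799 FPKM, a change of -1.37 that was -0.92 and no longer a DEG after scaling. The most abundant KASII, CL14889.Contig1_All, had 55.8, 64.2 and 68.8 FPKM at 30 DAF and 32.5, 24.3 and 27.3 at 60 DAF, and its fall of 1.16 was 0.71 and no DEG after scaling. KASII Unigene29386_All went from 55.0, 61.7 and 57.5 FPKM to 19.0, 15.1 and 19.1, without overlap, and its change was -1.69 and -1.24, a DEG under both scalings. Of the 4 KASII unigenes 3 fell on deposited FPKM and 2 after scaling.

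The reductases and the dehydratase of the elongation cycle did not move alike. HAD, the dehydratase, fell in all 4 of its unigenes under both scalings. CL1701.Contig5_All, the most abundant, had 48.3, 40.9 and 40.7 FPKM at 30 DAF and 14.1, 13.2 and 13.8 at 60 DAF, and CL1701.Contig4_All had the largest change of the pathway among the falls, -3.19 on deposited FPKM and -2.80 after scaling. EAR, the enoyl reductase that closes each cycle, fell in all 3 unigenes under both scalings, and their sum went from 99.6 ± 6.51 to 12.8 ± 3.09 FPKM, 0.128 times as much, the lowest ratio of the 11 enzymes of the pathway. In its unigene CL7296.Contig2_All the values were 30.2, 68.6 and 63.1 FPKM at 30 DAF against 4.83, 3.35 and 10.46 at 60 DAF.

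KAR, the first reductase of the cycle, was the exception. Unigene20183_All, the most abundant KAR unigene at 30 DAF, had 165, 191 and 164 FPKM at 30 DAF and 76.1, 71.1 and 94.8 at 60 DAF, and its fall of 1.11 was 0.66 and no DEG after scaling. The contigs of cluster CL2376 rose instead. CL2376.Contig2_All had 1.10, 4.39 and 0.59 FPKM at 30 DAF and 99.7, 85.3 and 153 at 60 DAF, so that its lowest library at 60 DAF was far above its highest at 30 DAF. It rose by 5.75 ± 0.52 (SE) with limma (adjusted p = 0.000575) and by 6.14 after scaling, and CL2376.Contig1_All rose by 5.31 and 5.69. CL2376.Contig3_All had 1.44, 428 and 2.94 FPKM at 60 DAF, was carried by replicate 2, and was not a DEG. Summed over the 8 listed unigenes, KAR was at 174, 203 and 177 FPKM at 30 DAF and at 334, 800.8 and 326 at 60 DAF. All 3 sums at 60 DAF were above those at 30 DAF, and the highest was that of replicate 2.

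The thioesterases release the finished chain, FATA mainly unsaturated and FATB mainly saturated ones. FATA CL14443.Contig1_All had 44.9, 45.9 and 46.4 FPKM at 30 DAF and 24.0, 18.5 and 21.3 at 60 DAF. Its change was -1.09 on deposited FPKM, a DEG, and -0.65 after scaling, not a DEG. FATB Unigene26774_All, at 75.4 ± 7.28 and 42.1 ± 2.20 FPKM, did not pass under either scaling, with changes of -0.83 and -0.38, although its libraries did not overlap on deposited FPKM.

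**Figure D2:**
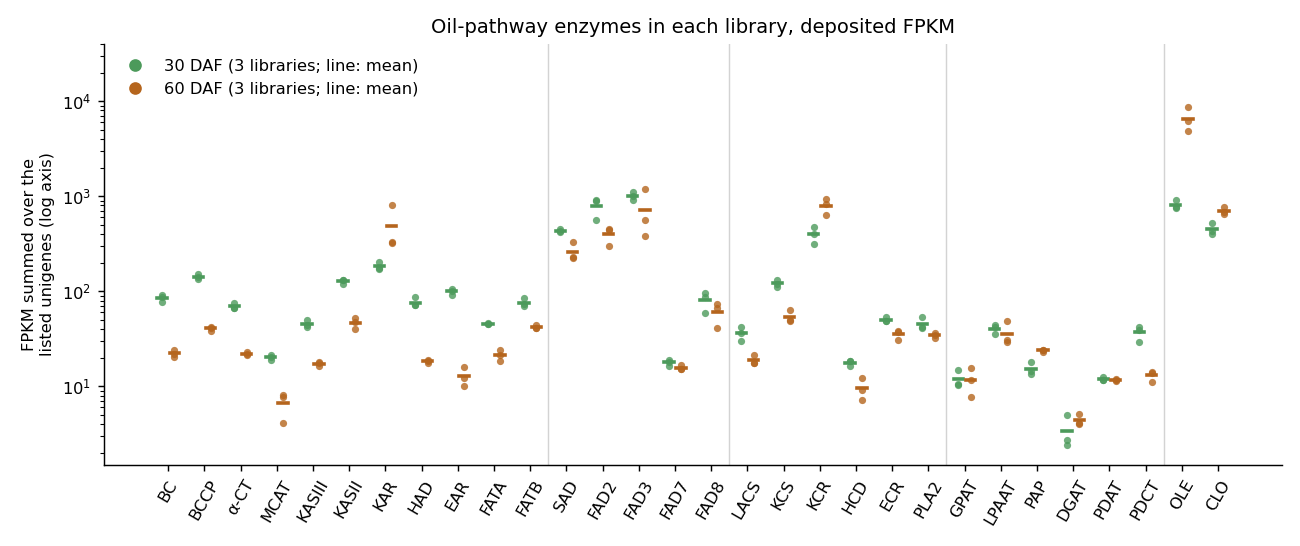
Deposited FPKM summed over the listed unigenes of each enzyme (log axis), 1 point per library at 30 DAF (green) and 60 DAF (brown) with the mean as a line; grey lines part fatty acid synthesis, desaturation, elongation, TAG assembly and oil bodies. The EAR sum goes from 99.6 to 12.8 FPKM and the OLE sum from 816 to 6556, while KAR and KCR are higher at 60 DAF than at 30 DAF.

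Of 24 listed desaturase unigenes 21 were tested; none rose and 2 fell on deposited FPKM, both of them FAD2. These 2 were 9.52% of those tested, against 12.5% called among all unigenes. Limma called none of them after scaling, where 3 were higher and 3 lower at an unadjusted p under 0.05. SAD, which puts the first double bond into stearoyl chains, had 188, 218 and 247 FPKM in Unigene13977_All at 30 DAF and 111, 128 and 106 at 60 DAF. These did not overlap, but the change of -0.91 was under the limit, and it was -0.46 after scaling. Without replicate 1 of 30 DAF it was -1.01 and passed (limma, adjusted p = 0.0214). FAD2 makes linoleic acid from oleic acid. Its main unigene, CL2636.Contig4_All, had 785, 405 and 666 FPKM at 30 DAF and 332, 217 and 329 at 60 DAF, and fell by 1.05 ± 0.29 (SE) with limma (adjusted p = 0.0432). The change was -0.60 and no DEG after scaling, and the call was also lost without replicate 1 or 3 of 30 DAF or any replicate of 60 DAF, with values of -1.16 to -0.85. The other FAD2 unigene that fell on deposited FPKM, CL2636.Contig2_All, was at 4.14 ± 2.23 and 0.737 ± 0.720 FPKM.

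FAD3, which makes α-linolenic acid from linoleic acid, was the most abundant desaturase with FAD2, and its contigs disagreed. CL2686.Contig5_All, the one with primers, had 54.5, 270 and 0.66 FPKM at 30 DAF and 270, 109 and 630 at 60 DAF. CL2686.Contig8_All had 410, 311 and 526 FPKM at 30 DAF and 32.9, 98.7 and 0.92 at 60 DAF. In replicates 1 and 3 of both stages the first was high where the second was low, while in replicate 2 they were close to each other. The third, CL2686.Contig6_All, held 45.9% to 48.5% of the cluster in every library. None of them was a DEG. Over all contigs of the cluster the sum was 906, 1106 and 1012 FPKM at 30 DAF and 567, 386 and 1199 at 60 DAF, which overlapped, and its change of -0.65 ± 0.38 (SE) did not pass (limma, adjusted p = 0.226). After scaling the cluster sum at 60 DAF was 0.984 times that at 30 DAF, against 0.712 times on deposited FPKM. On deposited FPKM without replicate 3 of 60 DAF, CL2686.Contig6_All fell by 1.15 and was a DEG (limma, adjusted p = 0.0193). Over all libraries its change was -0.69 on deposited FPKM and -0.23 after scaling, and passed under neither. The plastid desaturases FAD7 and FAD8, which act on membrane lipids, were not DEGs under either scaling. FAD7 CL13349.Contig2_All had 9.97 ± 0.936 and 9.04 ± 0.459 FPKM, and FAD8 Unigene34203_All 41.4 ± 10.3 and 31.5 ± 8.26, and the changes of -0.13 and -0.39 turned to 0.30 and 0.05 after scaling.

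**Figure D3:**
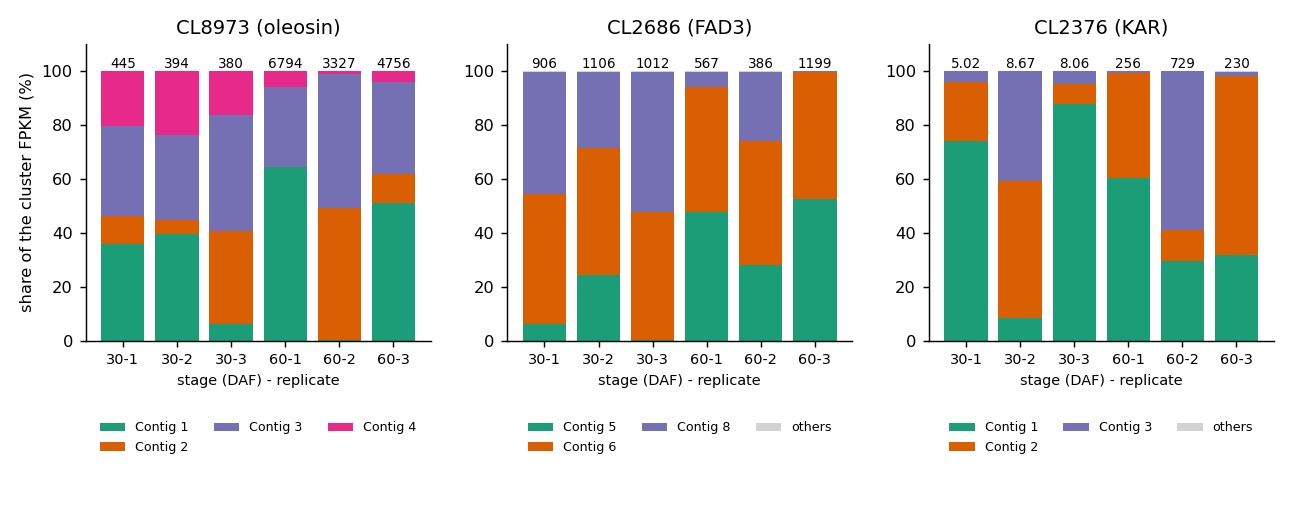
Share of each contig in the summed FPKM of its cluster (%) in the 6 libraries, named by DAF and replicate, for the oleosin cluster CL8973, the FAD3 cluster CL2686 and the KAR cluster CL2376; the number above each bar is the summed FPKM. CL2686.Contig6_All keeps 45.9% to 48.5% in all libraries. Contig 5 and Contig 8 trade places between the stages in replicates 1 and 3 and are close to each other in replicate 2. The oleosin sum is at least 3327 FPKM in each 60 DAF library against at most 445 at 30 DAF.

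Of the enzymes that make very long chains and of the acyl-CoA and phospholipid enzymes listed with them, 33 unigenes were listed and 31 tested. Among these 1 rose and 9 fell on deposited FPKM, 1 and 5 after scaling. The share called on deposited FPKM was 32.3%, against 12.5% of all. KCS, the condensing enzyme, took 6 of the 9 falls. CL14039.Contig2_All, the most abundant KCS, had 55.0 ± 2.70 and 25.3 ± 4.0 FPKM, and its change of -1.12 was -0.67 and no DEG after scaling. CL14705.Contig2_All had the larger change. It had 13.4, 13.1 and 9.14 FPKM at 30 DAF and 0.13, 0.05 and 0.11 at 60 DAF, and fell by 4.36 ± 0.23 (SE) with limma (adjusted p = 8.1e-05) and by 4.08 after scaling.

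In KCR, the reductase of that cycle, 1 of 4 tested unigenes rose. Of the others, none a DEG, Unigene17156_All and Unigene7734_All had changes of -0.95 and -0.92, and CL15103.Contig2_All one of 0.27. Their means were under 3 FPKM. CL15103.Contig1_All had 471, 312 and 394 FPKM at 30 DAF and 822, 923 and 630 at 60 DAF, and was far more abundant than any other unigene of the cycle. It rose by 1.02 ± 0.23 (SE) with limma (adjusted p = 0.0214) and by 1.47 after scaling (adjusted p = 0.0157). On deposited FPKM the change lay just over the limit, and the call was lost without replicate 2 or 3 of 30 DAF or replicate 1 or 2 of 60 DAF, with values of 0.86 to 1.03. It was lost with quantile normalization too, at 0.83. ECR Unigene30380_All and HCD CL6818.Contig4_All, the last reductase and the dehydratase, fell by 1.07 and 1.27, and neither call held after scaling, with changes of -0.63 and -0.85. LACS activates fatty acids to acyl-CoA. LACS Unigene19998_All had 35.3 ± 6.02 and 17.8 ± 2.13 FPKM, and its change of -0.96 was under the limit. On deposited FPKM it passed at -1.09 without replicate 1 of 30 DAF and at -1.05 without replicate 1 of 60 DAF. After scaling the change over all libraries was -0.52 and did not pass (limma, adjusted p = 0.0811). The phospholipase PLA2, which frees a fatty acid from a phospholipid, fell in 1 of 7 unigenes on deposited FPKM and in none after scaling. PLA2 CL4964.Contig3_All had a change of -0.34 that turned to 0.10 after scaling.

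TAG assembly stood at a lower level and moved less than fatty acid synthesis. Of 17 listed unigenes 15 were tested, 1 rose and 2 fell on deposited FPKM, and 4 rose and 1 fell after scaling, with a median change of -0.05 and 0.38. The share called on deposited FPKM was 20%, against 12.5% of all. The glycerol acyltransferase GPAT takes the first step. Unigene38234_All had 0.09, 0.06 and 0 FPKM at 30 DAF and 9.98, 7.55 and 2.40 at 60 DAF, which did not overlap. Its change of 3.51 (limma, adjusted p = 0.00295) depends on the 0.5 that was added, since the 30 DAF values lie below it. The GPAT with primers, Unigene30381_All, went from 7.74 ± 1.91 to 3.60 ± 0.695 FPKM, and its change was just short of the limit of 1. On deposited FPKM it passed at -1.12 without replicate 3 of 30 DAF and at -1.10 without replicate 1 of 60 DAF. After scaling the change over all libraries was -0.58 and did not pass (limma, adjusted p = 0.0908).

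LPAAT adds the second acyl chain, and PAP removes the phosphate. LPAAT CL3672.Contig1_All was at 13.3 ± 0.713 and 14.7 ± 5.81 FPKM, with a change of 0.08 that was -0.21 without replicate 1 of 60 DAF. After scaling its stages did not overlap, and its change of 0.52 did not pass (limma, adjusted p = 0.223). PAP was higher at 60 DAF in sum, at 14.4, 18.2 and 13.6 FPKM against 24.3, 23.1 and 24.4, without overlap. Its 4 tested unigenes had changes up to 0.74 and were not DEGs on deposited FPKM. After scaling 3 of them passed, and the most abundant, CL13997.Contig3_All at 5.47 ± 0.792 and 6.62 ± 0.560 FPKM, did not, with changes of 0.26 and 0.68. DGAT, which adds the last chain, had 2.73, 4.95 and 2.44 FPKM in CL6160.Contig2_All at 30 DAF and 4.14, 5.10 and 3.99 at 60 DAF. The stages overlapped on deposited FPKM, and the change of 0.39 ± 0.27 (SE) did not pass. After scaling the stages did not overlap, and the change of 0.79 did not pass either (limma, adjusted p = 0.0695). PDAT Unigene43934_All, which takes the chain from a phospholipid instead, was at 11.8 ± 0.552 and 10.8 ± 0.566 FPKM, and its change was -0.13 before and 0.31 after scaling. PDCT exchanges head groups between phosphatidylcholine and diacylglycerol. Its unigene CL13909.Contig1_All fell under both scalings, from 39.4, 29.4 and 42.2 FPKM to 11.1, 13.8 and 14.2, with changes of -1.46 and -1.02.

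Of the unigenes for oil-body proteins, 3 of the 6 oleosins rose and none of the 4 caleosins did. All 10 listed unigenes were tested, 3 passed as higher on deposited FPKM and 4 after scaling, limma called none lower, and none was lower at an unadjusted p under 0.05 either. Their median change was 1.49 and 1.85, and 30% of them were called on deposited FPKM, against 12.5% of all. Oleosin CL8973.Contig3_All, the one with primers, had 148, 124 and 164 FPKM at 30 DAF and 1998, 1652 and 1627 at 60 DAF. The stages lay far apart, and it rose by 3.60 ± 0.18 (SE) with limma (adjusted p = 7.4e-05) and by 4.05 after scaling. Oleosins Unigene26649_All and Unigene23397_All rose by 2.06 and 1.76, to 1039 ± 117 and 559 ± 179 FPKM at 60 DAF. The most abundant oleosin contig, CL8973.Contig1_All, had 160, 156 and 23.0 FPKM at 30 DAF and 4367, 3.42 and 2421 at 60 DAF. It was low in replicate 2 of 60 DAF, where CL8973.Contig2_All held 49.2% of the cluster, and was not a DEG, while without that library its change was 5.28 and passed (limma, adjusted p = 0.0106). Over its 4 contigs the cluster had 445, 394 and 380 FPKM at 30 DAF and 6794, 3327 and 4756 at 60 DAF, 12.2 times as much (limma on the sums, adjusted p = 0.000139). Caleosin, a calcium-binding coat protein, changed less. CL6205.Contig10_All had 383, 418 and 507 FPKM at 30 DAF and 656, 735 and 629 at 60 DAF, which did not overlap, and its change of 0.63 was not a DEG on deposited FPKM but at 1.09 was one after scaling.

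**Figure D4:**
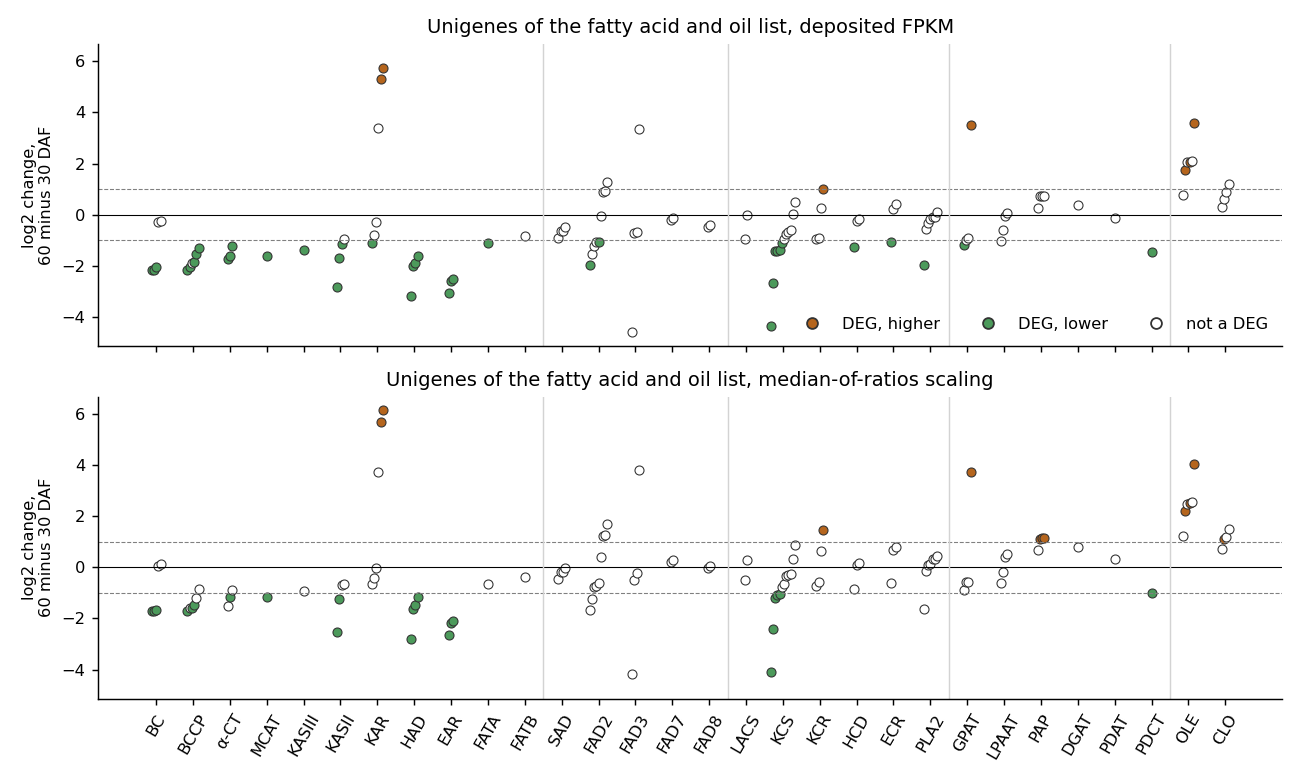
Log2 change from 30 to 60 DAF of the 112 tested unigenes of the fatty acid and oil list, 1 point per unigene, by enzyme, on deposited FPKM (top) and with median-of-ratios scaling (bottom); filled points are DEGs under that scaling and dashed lines mark a change of 1. All 4 HAD and all 3 EAR unigenes are lower DEGs in both panels, the higher DEGs of fatty acid synthesis are 2 KAR contigs, and no desaturase is a DEG in the bottom panel.

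The other lipid unigenes that the study named numbered 381, of which 313 were tested; 40 rose and 80 fell on deposited FPKM, 57 and 48 after scaling. Their median change was -0.42 and -0.03, against -0.35 and -0.01 over all tested unigenes, and 38.3% of them were called on deposited FPKM, against 12.5% of all. They too were chosen by the study on these libraries, so the counts are not independent evidence of a direction. Grouped by role, lower DEGs outnumbered higher ones in 6 of 8 groups on deposited FPKM and in 4 of 8 after scaling. The share called on deposited FPKM ran from 31.4% for glycosidases to 68.8% for cutin, suberin and wax. Sphingolipid unigenes, of which 22 were tested, gave 1 rise and 10 falls, and 1 and 6 after scaling. Among the falls was CL2726.Contig2_All, annotated as a ceramide galactosyltransferase, with 45.8 ± 1.27 and 8.14 ± 1.46 FPKM and changes of -2.43 and -1.99. Sterol unigenes lost most of their falls to scaling, with 4 rises and 13 falls among 44 before and 5 and 4 after. Within them the squalene synthase step (farnesyl-diphosphate farnesyltransferase) was split. CL13056.Contig1_All had 198, 189 and 171 FPKM at 30 DAF and 2.69, 2.14 and 3.15 at 60 DAF, a change of -5.89 (limma, adjusted p = 6.6e-06). CL2944.Contig2_All, with the same annotation, rose by 2.74 to 14.7 ± 5.97 FPKM. The study also placed CL13056.Contig1_All under MAPK signaling, hormone signal transduction and terpenoid pathways, where it was the largest fall by the naming rule.

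Membrane phospholipid unigenes gave 6 rises and 15 falls among 63, and 8 and 9 after scaling. The phosphoethanolamine N-methyltransferase CL10135.Contig2_All, which makes phosphocholine, had 36.1, 50.8 and 46.3 FPKM at 30 DAF and 2.09, 1.15 and 3.10 at 60 DAF. It fell by 4.16 ± 0.29 (SE) with limma (adjusted p = 0.00022) and by 3.75 after scaling. Glycerophosphodiester phosphodiesterase CL11992.Contig4_All rose by 3.80, from 4.64, 0.08 and 2.49 FPKM to 24.9, 43.8 and 21.0. Galactolipid and acylglycerol lipase unigenes gave 6 rises and 4 falls among 26, and 10 and 3 after scaling. Members with one annotation, acylglycerol lipase, went both ways, CL5476.Contig1_All from 5.33 ± 2.01 to 34.7 ± 12 FPKM and CL14491.Contig2_All from 23.6 ± 4.08 to 5.92 ± 0.712. The naming rule took both from DEGs under both scalings.

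Oxylipins, a class of oxidised fatty acids that includes jasmonate, gave 4 rises and 10 falls among 43, and 6 and 6 after scaling. Peroxygenase CL10095.Contig1_All fell by 4.54, from 20.6 ± 4.06 to 0.423 ± 0.280 FPKM. Jasmonate O-methyltransferase CL16109.Contig3_All rose by 5.21, from 0.59, 0.14 and 0.44 FPKM to 52.7, 72.6 and 7.99, but its cluster summed over 5 contigs changed by 0.13 and was not a DEG. Cutin, suberin and wax unigenes gave 4 rises and 7 falls among 16, and 5 and 6 after scaling. The fatty acid omega-hydroxylase Unigene16366_All, an enzyme of cutin and suberin monomers, fell by 3.98, from 8.26, 19.4 and 11.4 FPKM to 0.58, 0.04 and 0.40. A feruloyl transferase of suberin, Unigene37567_All, rose by 2.61 with 8.21, 0.97 and 9.91 FPKM at 60 DAF, and lost its call without any replicate of 30 DAF and without replicate 1 or 3 of 60 DAF, with values of 2.09 to 2.86. Fatty acid degradation gave 4 rises and 12 falls among 32, and 6 and 8 after scaling. Its alcohol dehydrogenases, enzymes of fermentation as well, went both ways. CL585.Contig4_All fell by 4.69, from 88.3 ± 3.72 to 2.98 ± 0.638 FPKM, while CL656.Contig5_All rose by 1.05, from 149 ± 15.4 to 320 ± 121 FPKM. The latter call was lost without any replicate of 30 DAF and without replicate 2 of 60 DAF, with values of 0.75 to 1.10. Glycosidase unigenes of the sphingolipid and glycolipid pathways gave 7 rises and 4 falls among 35, and 9 and 2 after scaling. Beta-galactosidase CL1227.Contig2_All fell by 3.89, from 26.3 ± 2.69 to 1.49 ± 0.995 FPKM. Unigene33736_All, with the same annotation, rose by 2.06 with 7.90, 7.36 and 1.87 FPKM at 60 DAF, and lost its call without any replicate of 30 DAF and without replicate 1 or 2 of 60 DAF, with values of 1.74 to 2.15.

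Outside lipid metabolism, 1133 tested unigenes fell into 19 groups of KEGG pathways, and 232 of them into more than 1 group. The study listed them as DEGs between these very stages, so only their direction is described, with no test. On deposited FPKM 76.6% of them were DEGs, against 12.5% of all tested unigenes. Lower DEGs outnumbered higher ones in all 19 groups on deposited FPKM, and after scaling in 9 of 19. Under both scalings falls outnumbered rises in 16 of 19. Over all tested unigenes lower DEGs also outnumbered higher ones, 4304 to 1166 on deposited FPKM and 2035 to 1162 under both scalings. In these groups together they did so by 602 to 266 and 527 to 265. The direction was therefore not particular to these groups. Nucleotide sugar metabolism, which feeds cell wall polysaccharides, had 5 rises and 45 falls among 63 unigenes under both scalings, DNA replication and repair 6 and 42 among 66, pectin and pentose interconversions 7 and 36 among 51, glycolysis and carbon metabolism 11 and 50 among 80, and amino acid biosynthesis 10 and 43 among 70. Photosynthesis and chlorophyll pathways had 4 and 21 among 33, which included all 3 photosynthesis and both antenna protein unigenes as falls. By contrast rises and falls were equal in number for phenylpropanoids (27 and 27 among 74), flavonoids and stilbenoids (19 and 19 among 52) and terpenoids and carotenoids (21 and 21 among 59), and nearly so for the ribosome and translation (38 and 39 among 121). After scaling, higher DEGs outnumbered lower ones in 10 of 19 groups, the phenylpropanoid, flavonoid, terpenoid and ribosome groups among them. Hormone signal transduction was another, with 20 rises and 44 falls among 102 on deposited FPKM and 48 and 38 after scaling.

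**Figure D5:**
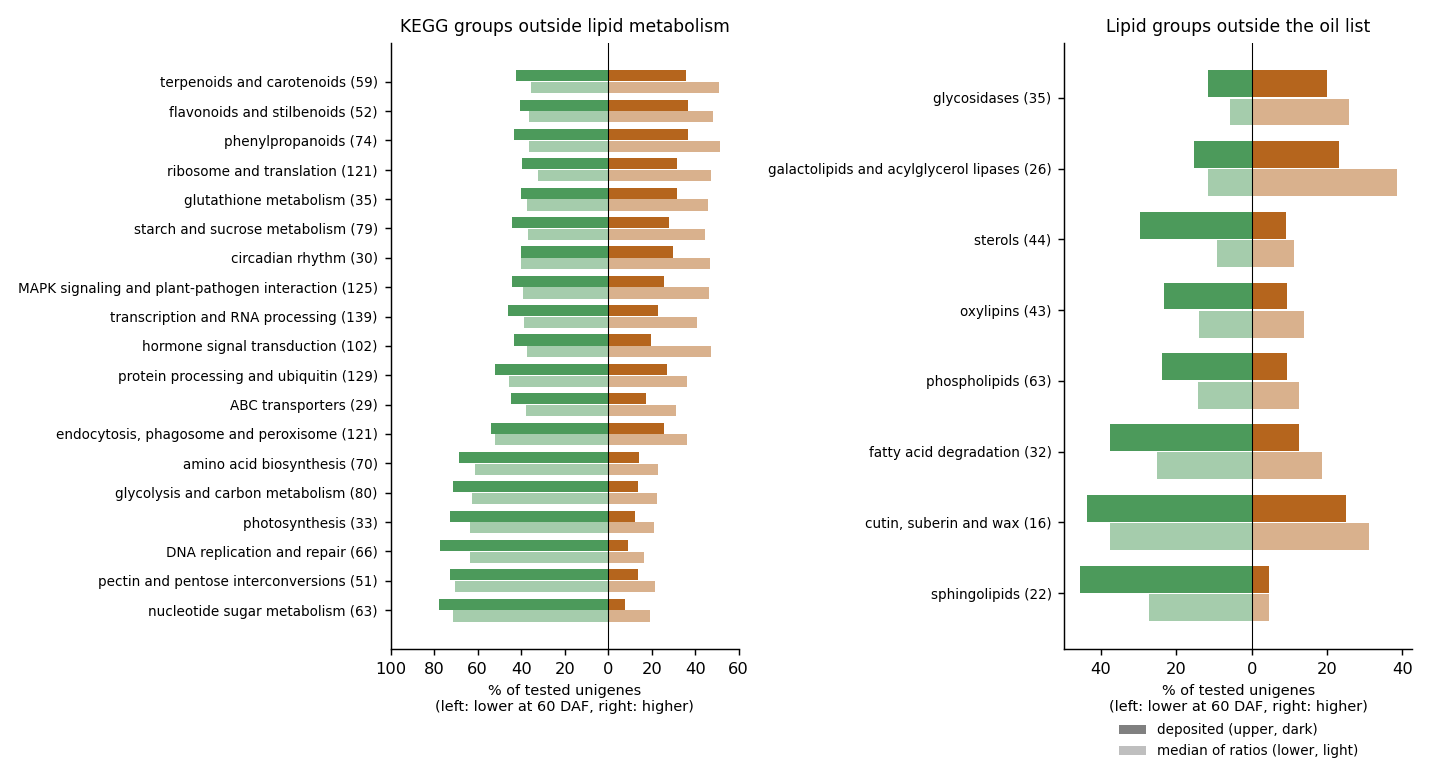
Share of tested unigenes (%) that were DEGs higher (brown, right) or lower (green, left) at 60 DAF, for KEGG groups outside lipid metabolism and for lipid role groups outside the fatty acid and oil list, on deposited FPKM (dark) and with median-of-ratios scaling (light); the number of tested unigenes is in brackets. Green bars are the longer ones in all 19 KEGG groups on deposited FPKM and in 9 of them after scaling. Over all tested unigenes 9.8% were lower and 2.66% higher on deposited FPKM.

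The unigenes with the largest changes in these groups are known by their pathway only. In the DNA replication and repair pathways CL1954.Contig3_All had 74.3, 94.7 and 67.0 FPKM at 30 DAF and 0.54, 0.63 and 0.86 at 60 DAF, and the 3 contigs of its cluster summed to 331 ± 32.7 and 2.06 ± 0.531 FPKM. The nucleotide sugar unigene CL3151.Contig3_All fell from 451, 483 and 604 FPKM to 0.73, 0.81 and 1.06, the largest fall among the listed unigenes at -8.55 (limma, adjusted p = 2.3e-06). The pectin pathway held opposite extremes. Unigene41161_All fell by 7.11, from 137 ± 30.4 to 0.513 ± 0.323 FPKM, and Unigene31096_All rose by 5.74, from 1.25 ± 0.945 to 84.4 ± 18.2 FPKM.

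Among the rises, CL14707.Contig2_All, in the nucleotide sugar and MAPK signaling pathways, had 26.2, 28.0 and 25.4 FPKM at 30 DAF and 8297, 31292 and 4724 at 60 DAF. It was low and even at 30 DAF and high but uneven at 60 DAF, and rose by 8.63 ± 0.61 (SE) with limma (adjusted p = 0.00022). In hormone signal transduction Unigene16745_All rose by 8.59, from 1.28, 1.41 and 1.22 FPKM to 1049, 583 and 549. The flavonoid unigene CL2867.Contig2_All rose by 5.75, from at most 0.09 FPKM at 30 DAF to 40.8, 51.2 and 10.9. In the phagosome pathway Unigene19629_All rose by 6.56, from 0.350 ± 0.187 to 79.8 ± 19.0 FPKM. The naming rule took each of these from DEGs under both scalings, so that call is no separate result.

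The other unigenes with the largest changes of their groups follow, which the naming rule also took only from DEGs under both scalings. CL9072.Contig2_All, listed under the phenylpropanoid, photosynthesis, starch and terpenoid groups at once, had 0.39, 0.37 and 1.57 FPKM at 30 DAF and 87.4, 49.8 and 48.9 at 60 DAF. Unigene30626_All, the largest fall of the photosynthesis group, went from 53.8 ± 8.81 to 3.23 ± 1.41 FPKM. In the phenylpropanoid group CL4555.Contig1_All fell by 6.23, from 168 ± 29.5 to 1.99 ± 1.49 FPKM. The flavonoid unigene CL2889.Contig1_All fell by 4.59, and its 30 DAF values of 33.8, 9.62 and 45.1 FPKM were uneven. In starch and sucrose metabolism CL7090.Contig1_All fell by 4.77, from 26.6 ± 4.26 to 0.50 ± 0.234 FPKM.

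In amino acid biosynthesis CL534.Contig3_All rose by 3.67, from 3.63 ± 0.374 to 53.7 ± 15.6 FPKM, and Unigene34858_All fell by 4.13. The ribosome and translation group held a rise in Unigene23490_All, which was low in replicate 3 of 60 DAF (1154, 1037 and 188 FPKM), and a fall in CL14956.Contig1_All, from 499 ± 41.3 to 6.0 ± 3.68 FPKM. The circadian group held Unigene680_All, which rose by 4.48, and Unigene24722_All, which fell by 4.02 to at most 0.12 FPKM. Glutathione metabolism held Unigene3871_All, which rose by 3.38, and Unigene24210_All, which fell by 6.41. In protein processing Unigene43510_All rose by 4.61 and Unigene43344_All fell by 4.38. ABC transporter unigene CL15207.Contig2_All fell by 2.13, and CL1954.Contig1_All, listed under endocytosis and a contig of the cluster described above, fell by 6.63. In transcription and RNA processing CL1271.Contig1_All rose by 4.45 with 37.0, 143 and 25.7 FPKM at 60 DAF. CL10270.Contig2_All fell by 6.17, but its cluster summed over 7 contigs changed by -0.79 and was not a DEG.

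Calls in a pair of groups were lost when single libraries were left out. The DNA replication and repair unigene Unigene11452_All rose by 2.51 with 36.9, 4.16 and 11.01 FPKM at 60 DAF (limma, adjusted p = 0.0498), and lost its call without any replicate of 30 DAF and without replicate 1 or 3 of 60 DAF, with values of 1.73 to 2.82. CL1460.Contig1_All, of glycolysis and carbon metabolism, rose by 3.01 from at most 0.08 FPKM to 3.01, 13.3 and 1.23, and lost its call without any replicate of 30 DAF, with values of 2.95 to 3.06. Its change depends on the added 0.5, as its 30 DAF values lie below it.

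Outside all the lists, the largest changes were in unigenes with no annotation in the sources used here. Unigene40878_All had 21.4, 22.8 and 20.9 FPKM at 30 DAF and 9971, 16444 and 9058 at 60 DAF, and rose by 9.01 ± 0.24 (SE) with limma (adjusted p = 6.6e-06). CL1432.Contig3_All rose by 7.43, from 1.43, 0.84 and 0.59 FPKM to 194, 384 and 193. In the other direction CL4133.Contig2_All fell by 7.23, from 124, 364 and 34.9 FPKM to 0.10, 0.29 and 0.50, and CL1954.Contig2_All fell by 6.90, from 143, 154 and 126 FPKM to 1.08, 0.20 and 0.99. Of the tested unigenes, 50 were listed at 0 FPKM in all 30 DAF libraries and 121 in all 60 DAF libraries, and 49 and 116 of these were DEGs under both scalings.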

How the data were processed

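Seeds of 3 stages were sequenced, with 3 libraries per stage. The authors assembled clean reads de novo with Trinity and Tgicl, and the FPKM they deposited came from RSEM run on Bowtie2 alignments to these unigenes; the sources used here give no tool versions. Of the deposited lines, 9 name no unigene and were dropped. Columns were assigned to stage and replicate by name.

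Unigenes that reached 0.5 FPKM in 3 or more of the 6 libraries were fitted on log2(FPKM + 0.5), on which changes of low unigenes come out too small, with limma 3.58.1 in R 4.3.3 (variance trend, Benjamini-Hochberg adjustment). The fit, but not the filter, was repeated after median-of-ratios scaling, whose factors came from unigenes above 0 in all 6 libraries. Tables and figures were made with Python 3.11.15, pandas 2.3.3, numpy 2.4.6 and matplotlib 3.10.9. Read counts were not analysed here and depth limits the precision of low values, where an FPKM of 0 is given only as listed. Groups of lipid and KEGG unigenes followed the study's supplementary lists.

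The comparison and the lists were chosen with earlier results of these data known. The unigenes named were the 16 with qRT-PCR primers, the most abundant of each oil enzyme, and, for each pathway or role group and outside the lists (2 each way), the largest rise and fall among DEGs under both scalings whose libraries did not overlap and whose higher mean was at least 5 FPKM. Other unigenes of an enzyme or annotation were named after their values were seen. The alternatives tried were quantile normalization, a model of all 9 libraries, a replicate block, no variance trend, robust moderation, summed contigs, each library left out, 0.1 or 1 as the added value, a filter of 1 FPKM or none, and an adjusted p of 0.01.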

Additional observations from a re-analysis of the deposited data

How the results depend on the processing

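The count of DEGs moved with the scaling, the filter and the threshold. Median-of-ratios scaling gave 1881 higher and 2035 lower DEGs and quantile normalization 1896 and 2023, against 1166 and 4304 on deposited FPKM. Without a filter on low values there were 2480 DEGs, 427 higher and 2053 lower, among 125685 unigenes, and at an adjusted p of at most 0.01 there were 2796, 588 higher and 2208 lower. On deposited FPKM, leaving out 1 library gave 3860 to 5110 DEGs, 796 to 1098 higher and 2929 to 4206 lower, and 40 to 48 DEGs in the fatty acid and oil list, against 45. After median-of-ratios scaling it gave 2518 to 3644 DEGs, 1188 to 1766 higher and 1330 to 1932 lower, the lowest of each without replicate 3 of 30 DAF.

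Replicate numbers did not pair the libraries: deviations of same-numbered libraries from their stage means correlated at 0.039, -0.180 and -0.062, and not every library correlated best with its own number. With the replicate number as a block there were 4251 DEGs, and with the block after median-of-ratios scaling 2973 DEGs, 1489 of them lower, and 28 in the fatty acid and oil list.

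Of the 85 unigenes chosen by the naming rule, 61 were DEGs under both scalings. None of these changed sign under any alternative run, and 45 kept their call under all of them. The rule picked largest changes among DEGs under both scalings, so these counts do not measure how stable calls were in general. Signs turned for unigenes that were not DEGs. After median-of-ratios scaling, with or without the block, CL13349.Contig2_All changed by 0.30, Unigene34203_All by 0.0546, Unigene43934_All by 0.31 and CL4964.Contig3_All by 0.10, and with quantile normalization CL13349.Contig2_All changed by 0.24, Unigene43934_All by 0.23 and CL4964.Contig3_All by 0.0216. With contigs summed, CL2686.Contig5_All changed by -0.65 and CL3672.Contig1_All by -0.19, and the latter by -0.21 without replicate 1 of 60 DAF.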
